A study of Mus musculus with 12 samples.

Results

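Interferon-stimulated genes were examined here as a set of 41 genes, out of 23863 genes counted by RNA sequencing in 12 libraries of cultured mouse osteoclast precursors. The members were picked by gene symbol as known targets of interferon signalling, with earlier results of these data known. All 41 were found in the count table. Of these, 40 had enough counts to be tested, and Ifi44 did not. The precursors were bone marrow cells of RUNX1 fl/+ mice, sorted for CD115, the receptor of M-CSF, for little or no CD11b, and for the absence of the lymphocyte markers CD45R and CD3. All groups share this genotype, which is 1 floxed allele of the blood cell transcription factor gene Runx1, and the titles also tag them as WT. There were 4 groups of 3 libraries: female MCSF+RANKL, male MCSF+RANKL, female MCSF and male MCSF. MCSF keeps macrophage precursors alive and dividing, and RANKL, given at 30 ng/ml, is the cytokine that makes them form osteoclasts, the cells that resorb bone. Culture lasted 3 days according to the titles, and a different time stands in the growth protocol. The labels state neither the age of the mice nor whether the replicates of a group were separate animals, so each p-value rests on a spread between libraries that may be technical.

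Type I interferons are cytokines of the antiviral defence. Their receptor, a pair of Ifnar1 and Ifnar2 chains, activates the kinases Jak1 and Tyk2, and these activate transcription factors, among them Stat2, which joins with Irf9 in a complex that binds the interferon-stimulated response element (ISRE) in front of target genes. The targets sense viral RNA, block its translation, degrade it or hold virus particles back, and several of them feed back on the pathway. In mouse osteoclast precursors, interferon beta is known as a brake on osteoclast formation.

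The 12 libraries held 10646697 to 15983769 counts, and mitochondrial genes took 2.96 to 3.86% of the counts with MCSF+RANKL and 1.43 to 2.35% with MCSF. The 10 osteoclast markers summed to 29358 to 39126 CPM (counts scaled to a common library total) with MCSF+RANKL, against 73.4 to 79.8 CPM with MCSF. The RANKL label thus met its markers. The 6 macrophage markers, of which 4 fell, summed to 2814 to 3169 CPM with MCSF+RANKL and 4403 to 5200 CPM with MCSF. Over the members, a pair of libraries stood apart from the others of their treatment. Male MCSF replicate 2 held the highest level of the 6 MCSF libraries in 39 of the 41 members, and in 19.7% of all tested genes. Female MCSF+RANKL replicate 3 was the highest of the 6 MCSF+RANKL libraries in 33 of the 41 members, and in 15.6% of all tested genes.

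The promoters of the members were searched for the ISRE. The window of 250 bases before and 50 bases after the start was read on both strands for the ISRE core GAAANNGAAA, where N is any base. RefSeq promoters on GRCm38.p6 were at hand for 32 of the 41 members, and 15 of the 32 (46.9%) held the core, against 3.99% of the 27025 genes with a window. The shorter GAS core TTCNNNGAA, a site of interferon gamma signalling, stood in 8 of the 32 (25%), against 9.55% of all genes. The 200 bases before the start are shown for 6 members, with ISRE cores in capitals. Isg15 (minus strand, chr4:156200819-156201018), Oas1a (minus, chr5:120907526-120907725), Ifit3 (plus, chr19:34583329-34583528), Rsad2 (minus, chr12:26456453-26456652) and Bst2 (minus, chr8:71537473-71537672) hold 3, 2, 2, 1 and 2 matches. The matches overlap in Isg15, Oas1a and Bst2, and those of Ifit3 and Rsad2 lie on the other strand and read as the reverse complement. Phf11d (minus, chr14:59365491-59365690) is shown because it had the largest change with RANKL among the members; its letters hold no match, which says nothing of the factors that act on it.
Isg15: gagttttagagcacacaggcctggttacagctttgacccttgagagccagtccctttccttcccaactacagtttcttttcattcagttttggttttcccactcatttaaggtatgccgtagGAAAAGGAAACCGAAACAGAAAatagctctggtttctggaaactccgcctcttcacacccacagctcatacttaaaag
Oas1a: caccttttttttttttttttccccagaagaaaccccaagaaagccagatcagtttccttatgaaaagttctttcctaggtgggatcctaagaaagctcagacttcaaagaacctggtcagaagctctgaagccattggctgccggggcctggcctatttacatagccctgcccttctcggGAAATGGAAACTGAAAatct
Ifit3: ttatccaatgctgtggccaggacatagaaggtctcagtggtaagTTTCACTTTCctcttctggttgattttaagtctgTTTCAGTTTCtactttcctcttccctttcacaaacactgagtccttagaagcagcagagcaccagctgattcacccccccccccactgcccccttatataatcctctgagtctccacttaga
Rsad2: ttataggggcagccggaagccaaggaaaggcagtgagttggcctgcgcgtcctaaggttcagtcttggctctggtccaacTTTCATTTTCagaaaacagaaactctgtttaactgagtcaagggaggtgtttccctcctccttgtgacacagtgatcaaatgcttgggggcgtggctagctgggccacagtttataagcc
Bst2: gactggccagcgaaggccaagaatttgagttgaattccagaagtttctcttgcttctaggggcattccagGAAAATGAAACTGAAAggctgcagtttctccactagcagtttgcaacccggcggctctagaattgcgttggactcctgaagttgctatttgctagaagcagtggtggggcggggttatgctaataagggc
Phf11d: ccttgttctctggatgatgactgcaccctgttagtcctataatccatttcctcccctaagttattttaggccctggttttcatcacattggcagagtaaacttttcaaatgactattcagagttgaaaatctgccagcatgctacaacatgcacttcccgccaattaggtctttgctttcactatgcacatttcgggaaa
Most members fell whether or not they held the core, where 31.3% of all tested genes fell in the mean of the sexes. The search read a single pattern in a short window, so a member without a match is not shown to lack an ISRE. The 15 tested members with a core had a median log2 fold change of -1.48 (MCSF+RANKL over MCSF, mean of the sexes) and 13 of them fell, and the 16 tested members without a core had -1.22 and 14 of them fell.

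Most members were lower with RANKL. Summed over all 41, they made up 658 to 1149 CPM in the MCSF+RANKL libraries with a median of 778 CPM, against 1622 to 2907 CPM in the MCSF libraries with a median of 1705 CPM. Every MCSF+RANKL library thus lay below every MCSF library in the sum, and in each group the values are of whole cultures, in which fewer cells of a type and less RNA per cell cannot be told apart. In the mean of the sexes 36 of the 40 tested members fell and 0 rose (edgeR quasi-likelihood test with p adjusted by Benjamini-Hochberg, below 0.05), where 31.3% of all 13236 tested genes fell and 33.4% rose. The median log2 fold change was -1.40 over the members and 0.02 over all tested genes. The members that did not pass were Oasl1, Isg15, Isg20 and Cxcl10. With the replicate number within sex as a block in the fit, Isg15 and Isg20 also passed. In 24 of the 40 members all 6 MCSF+RANKL libraries lay below all 6 MCSF libraries, as in 22.7% of all tested genes. In 29 of the 40 the MCSF+RANKL library lay below the MCSF library of the same number and sex in all 6 pairs, as in 31.4% of all tested genes.

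In females 22 of the 40 members fell with RANKL and 0 rose, against 25.1% of all tested genes that fell and 26.8% that rose, and the median log2 fold change was -1.03 over the members. In males 36 fell and 0 rose, against 26.6% and 28.4% of all tested genes, with a median of -1.86 (edgeR, 3 libraries per group). At an unadjusted p below 0.05, and with DESeq2, the members that rose were also 0 in either sex. The 22 that fell in females all fell in males, another 14 passed in males only, and 4 passed in neither sex. With the replicate number within sex as a block, 28 fell in females and 38 in males, against 29.3% and 30.5% of all tested genes. The log2 fold change was below 0 in both sexes in 38 of the 40; Oasl1 and Cxcl10 were above 0 in females. Without male MCSF replicate 2 the count in males was 29 and the median -1.22. The count in females was 28, since the female comparison shares its estimate of the spread with all 12 libraries. Of all tested genes 24.2% then fell in males and 24.3% in females. The members stood highest in that library. Female calls gained without it, also those given beside the genes below, are therefore no separate support. In the mean of the sexes 30 passed without male MCSF replicate 2, against 29.8% of all tested genes that fell. Zbp1, Ifit1, Ifit3, Herc6, Mx1 and Rsad2 no longer passed there. In males the members that no longer passed without it were Zbp1, Ifit1, Ifit3, Isg15, Mx1, Mx2 and Rsad2. In the authors' deposited table, which lists 39 of the members, 22 are lower in females and 36 in males at the same threshold.

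**Figure D1:**
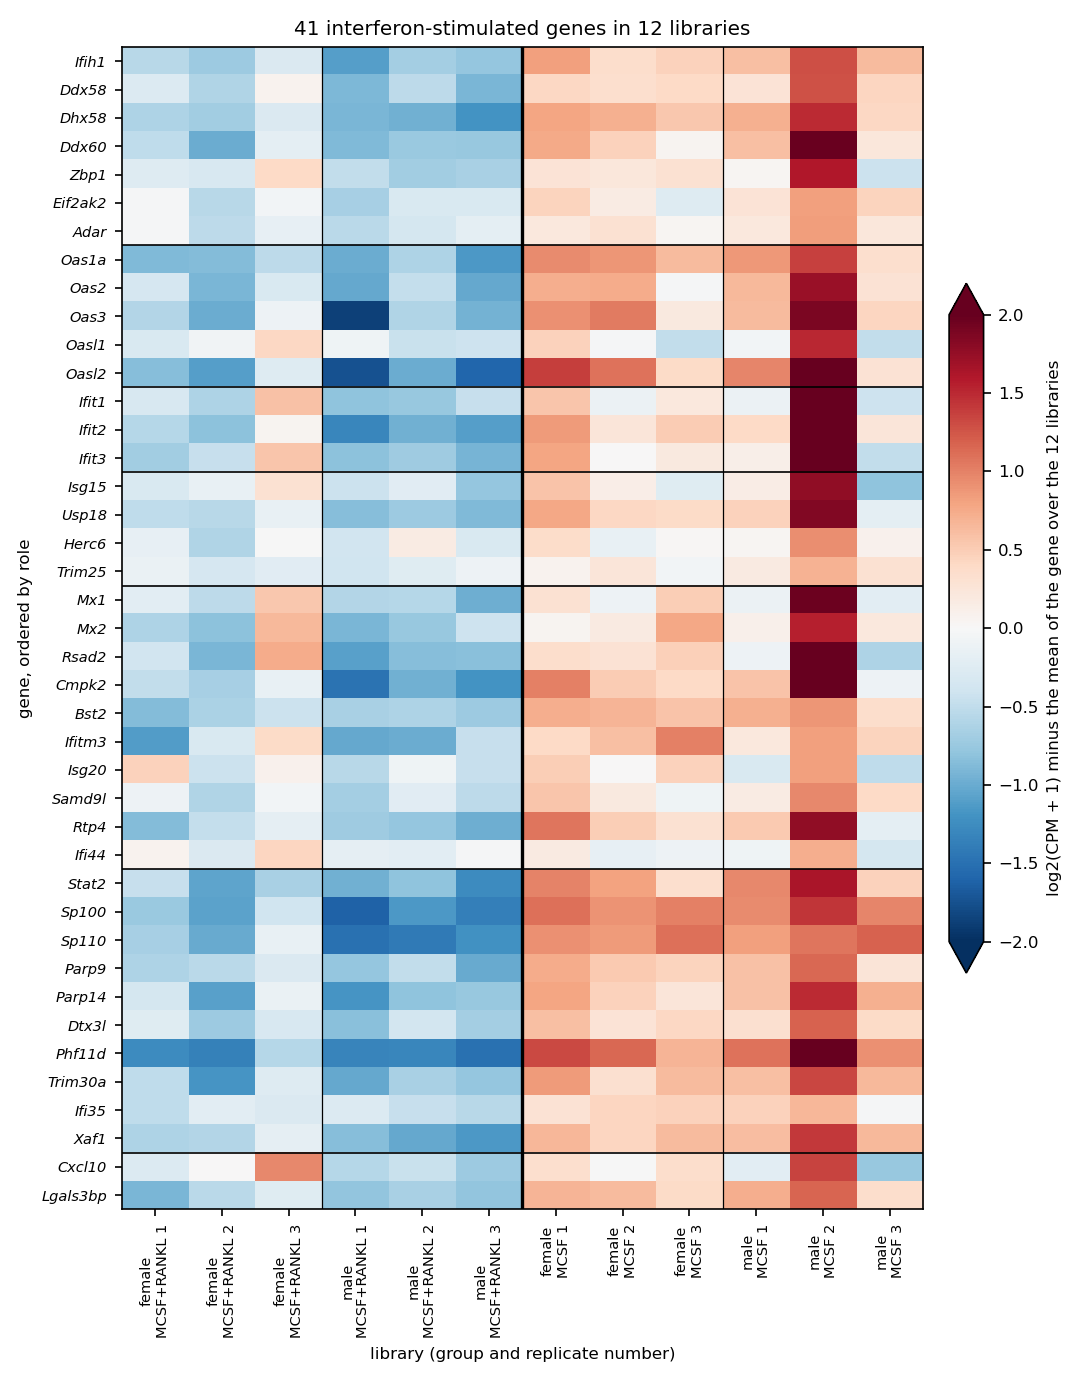
Heat map of 41 interferon-stimulated genes (rows, grouped by role) in 12 libraries (columns). Colour gives log2(CPM + 1) minus the mean of the gene over the 12 libraries, and values beyond the ends of the scale take the end colours. The MCSF+RANKL libraries on the left are mostly below and the MCSF libraries on the right mostly above the mean, with male MCSF replicate 2 the highest of its treatment in 39 of 41 rows and female MCSF+RANKL replicate 3 the highest of its treatment in 33.

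Levels differed widely between members. Per kb of exon, Ifitm3 stood highest with 203 CPM per kb with MCSF+RANKL and 433 with MCSF, ahead of Bst2 with 31.4 and 79.5, Lgals3bp with 20.7 and 52.1 and Trim25 with 22.4 and 31.6. The lowest was Ifi44, with 0.07304 CPM per kb with MCSF+RANKL and 0.0886 with MCSF. Next above it came Ddx60, with 0.126 CPM per kb with MCSF+RANKL and 0.565 with MCSF. Ifi44 was the member left untested, with 0.528, 0.1997 and 0.9700 CPM in female MCSF+RANKL, 0.284, 0.2601 and 0.444 CPM in male MCSF+RANKL, 0.657, 0.306 and 0.362 CPM in female MCSF and 0.371, 1.42 and 0.139 CPM in male MCSF. Its highest level was again in male MCSF replicate 2.

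Several members are neighbours in the genome (GRCm38, GENCODE vM21). Ifit2 (chr19:34550694-34576419), Ifit3 (chr19:34583531-34588731) and Ifit1 (chr19:34640871-34650009) lie side by side on chromosome 19. Oas2 (chr5:120730333-120749853), Oas3 (chr5:120753098-120777661) and Oas1a (chr5:120896256-120907521) form a cluster on chromosome 5, with Oasl2 (chr5:114896936-114912234) and Oasl1 (chr5:114923240-114937915) on the same chromosome. Parp14 (chr16:35832874-35871544), Dtx3l (chr16:35926511-35939151) and Parp9 (chr16:35938470-35972605) follow each other on chromosome 16, and Dtx3l and Parp9 overlap on opposite strands. Sp110 (chr1:85576899-85598817) and Sp100 (chr1:85649988-85709998) are neighbours on chromosome 1, Rsad2 (chr12:26442746-26456452) and Cmpk2 (chr12:26469204-26479837) on chromosome 12, and Mx1 (chr16:97447035-97462907) and Mx2 (chr16:97535308-97560900) on chromosome 16. Whether counting used the strand is not known here, which leaves overlapping genes uncertain, and the authors' deposited table marks Herc6 and Rtp4 as overlapping loci.

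Among the sensors of viral RNA and the enzymes that bind it, all 7 fell in the mean of the sexes and in males, and 4 of 7 fell in females, with median log2 fold changes of -1.10, -1.56 and -0.64. In the same order 31.3%, 26.6% and 25.1% of all tested genes fell, and these shares also belong beside the counts of the role groups below. Ddx60 (chr8:61928087-62038244, plus strand), a helicase linked to RNA sensing, had the largest change of the group. In females Ddx60 had 1.32, 0.666 and 1.87 CPM with MCSF+RANKL, against 4.596, 3.52 and 2.44 CPM with MCSF. In males Ddx60 had 0.781, 0.975 and 0.951 CPM with MCSF+RANKL, against 3.99, 12.03 and 2.85 CPM with MCSF. The 6 MCSF+RANKL libraries all lay below the 6 MCSF libraries, and male MCSF replicate 2 was far above the rest. Ddx60 fell by 1.45 ± 0.52 on the log2 scale in females (SE; edgeR adjusted p 0.0327) and by 2.79 ± 0.53 in males (adjusted p 0.000487). The male value of Ddx60 was -1.91 ± 0.40 without male MCSF replicate 2 (adjusted p 0.00152). The female call did not hold without female MCSF replicate 1 or 2 or without female MCSF+RANKL replicate 1 or 2 (adjusted p 0.0642 to 0.104).

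Eif2ak2 (chr17:78852564-78882573, minus strand) encodes PKR, the kinase that stops translation when it binds double-stranded RNA, and had the highest mean CPM of the sensors, also per kb. In females Eif2ak2 had 53.1, 36.6 and 52.3 CPM with MCSF+RANKL, against 73.9, 60.5 and 44.9 CPM with MCSF, and female MCSF replicate 3 lay below 2 of the MCSF+RANKL libraries. In males Eif2ak2 had 33.9, 43.8 and 43.4 CPM with MCSF+RANKL, against 65.9, 96.8 and 74.1 CPM with MCSF, with no overlap. Its log2 fold change was -0.34 ± 0.20 in females and did not pass (edgeR adjusted p 0.183; 0.0461 without female MCSF replicate 3), and it fell by 0.97 ± 0.20 in males (adjusted p 0.00105).

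The RIG-I-like receptors moved together. Ifih1, the sensor MDA5 of long double-stranded RNA, fell by 1.13 ± 0.22 in females and 1.82 ± 0.22 in males on the log2 scale. Ddx58, the sensor RIG-I of uncapped RNA ends, fell by 0.64 ± 0.25 and 1.55 ± 0.25, and Dhx58, their helper LGP2, by 1.28 ± 0.24 and 2.10 ± 0.25, again females before males. All 3 had no overlap between the 6 MCSF+RANKL and the 6 MCSF libraries, and Dhx58 held 6.91 to 13.7 CPM with MCSF+RANKL, against 23.1 to 49.95 CPM with MCSF. Adar, which edits adenosine to inosine in double-stranded RNA, had a log2 fold change of -0.42 ± 0.18 in females (edgeR adjusted p 0.0671; 0.0266 with replicate number as a block and 0.0254 without male MCSF replicate 2) and fell by 0.83 ± 0.18 in males. Zbp1, a sensor of left-handed nucleic acid that can start cell death, had -0.35 ± 0.46 in females (adjusted p 0.55) and fell by 1.56 ± 0.47 in males (adjusted p 0.0117). Without male MCSF replicate 2, Zbp1 no longer passed in males, at -0.56 ± 0.29 (adjusted p 0.127). Without this library and female MCSF+RANKL replicate 3 together, Zbp1 passed in females at -0.67 ± 0.23 (adjusted p 0.0313). It did not pass in males (adjusted p 0.0689). Both libraries were picked as those in which the members stood highest. Leaving them out lowers the female fold change by construction, so passing there is no separate support.

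Of the 5 genes of the oligoadenylate synthetase family, 4 fell in both sexes. Active enzymes of the family make short oligoadenylates that switch on the RNA-cutting enzyme RNase L, and Oasl1 is known in mice to lack that activity. Oasl2, a mouse member of the family with a ubiquitin-like end, had the largest change. In females Oasl2 had 8.52, 6.99 and 13.2 CPM with MCSF+RANKL, against 43.7, 35.5 and 21.2 CPM with MCSF. In males Oasl2 had 4.12, 7.61 and 4.69 CPM with MCSF+RANKL, against 32.7, 89.02 and 19.9 CPM with MCSF. No MCSF+RANKL library reached the lowest MCSF library, and the level in male MCSF replicate 2 was 2.73 times the median of the other 5 MCSF libraries. Oasl2 fell by 1.80 ± 0.47 in females and fell by 3.11 ± 0.50 in males on the log2 scale (SE; edgeR adjusted p 0.00568 and 0.000126). Without male MCSF replicate 2 its male log2 fold change was -2.26 ± 0.36.

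Oas1a had the highest level of the family. In females Oas1a had 12.7, 12.9 and 16.7 CPM with MCSF+RANKL, against 47.6, 45.95 and 38.5 CPM with MCSF. In males Oas1a had 11.7, 15.5 and 10.4 CPM with MCSF+RANKL, against 44.99, 64.4 and 30.98 CPM with MCSF. Here the groups were far apart, and male MCSF replicate 2 was only 1.43 times the median of the other 5. Oas1a fell by 1.64 ± 0.24 in females and 1.90 ± 0.24 in males on the log2 scale (edgeR adjusted p 5.23e-05 and 1.28e-05). Oas2 fell by 1.07 ± 0.35 and 1.95 ± 0.36, and Oas3 by 1.36 ± 0.42 and 2.32 ± 0.43, females before males. The male log2 fold change of Oas3 was -1.71 ± 0.36 without male MCSF replicate 2. The exception was Oasl1, known in mice to hold back the translation of Irf7, with 0.02 ± 0.49 in females and -1.07 ± 0.49 in males (adjusted p 0.979 and 0.079).

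The 3 IFIT genes, whose proteins bind viral RNA and hinder its translation, fell in males and did not pass in females, with median log2 fold changes of -2.61 and -0.56. Their sum was 5.96 to 20.3 CPM with MCSF+RANKL, against 13.7 to 92.9 CPM with MCSF, the highest in male MCSF replicate 2. In females Ifit2 had 4.23, 3.396 and 7.07 CPM with MCSF+RANKL, against 12.9, 8.18 and 10.05 CPM with MCSF. In males Ifit2 had 2.13, 2.99 and 2.598 CPM with MCSF+RANKL, against 9.18, 42.1 and 8.21 CPM with MCSF. The treatments did not overlap, and male MCSF replicate 2 was far above the other MCSF libraries. Ifit2 fell by 2.94 ± 0.56 on the log2 scale in males (edgeR adjusted p 0.000494), and by 1.76 ± 0.30 without male MCSF replicate 2 (adjusted p 0.000331). In females Ifit2 stood at -1.08 ± 0.53 on that scale (adjusted p 0.106; 0.00956 with replicate number as a block and 0.00399 without male MCSF replicate 2).

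The male calls of Ifit1 and Ifit3 were lost without male MCSF replicate 2. Ifit1, which binds RNA caps that lack host methylation, had 1.99, 2.08 and 2.79 CPM in male MCSF+RANKL, against 3.803, 23.9 and 2.92 CPM in male MCSF. It fell by 2.16 ± 0.67 in males on the log2 scale (edgeR adjusted p 0.0143), and without that library its log2 fold change was -0.55 ± 0.42 (adjusted p 0.299). Ifit3, of the same family, fell by 2.61 ± 0.73 in males (edgeR adjusted p 0.00782), and without the library stood at -0.91 ± 0.47 (adjusted p 0.128). In females the log2 fold changes were -0.33 ± 0.66 for Ifit1 and -0.56 ± 0.71 for Ifit3, and female MCSF+RANKL replicate 3 was 2.83 and 3.097 times the median of the other 5 MCSF+RANKL libraries. With both libraries left out, Ifit1 passed in females at -0.88 ± 0.30 (adjusted p 0.031) and not in males, at -0.55 ± 0.31 (adjusted p 0.161). With both left out, Ifit3 passed in females at -1.19 ± 0.34 and in males at -0.91 ± 0.35 (adjusted p 0.013 and 0.0474). As both libraries were picked for the high levels of the members, these calls are no separate support.

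In the ISG15 system, a ubiquitin-like tag with its ligases and its protease, 3 of 4 genes fell in males and in the mean of the sexes and 0 of 4 passed in females (3 of them in the mean: Usp18, Herc6 and Trim25). Usp18 removes ISG15 from proteins and also shuts the interferon receptor. In females Usp18 had 2.44, 2.33 and 3.395 CPM with MCSF+RANKL, against 7.32, 5.505 and 5.34 CPM with MCSF. In males Usp18 had 1.704, 1.95 and 1.65 CPM with MCSF+RANKL, against 5.75, 16.6 and 3.27 CPM with MCSF. Within each sex the treatments did not overlap, and over both sexes female MCSF+RANKL replicate 3 came slightly above male MCSF replicate 3. Usp18 fell by 2.27 ± 0.47 in males on the log2 scale (edgeR adjusted p 0.001), and without male MCSF replicate 2 its male log2 fold change was -1.34 ± 0.29 (adjusted p 0.00206). In females its log2 fold change of -1.15 ± 0.46 lay at the threshold (adjusted p 0.0507; 0.00673 with replicate number as a block and 0.0022 without male MCSF replicate 2).

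Trim25, a ubiquitin ligase that acts on RIG-I, had the highest level of the group and a small change. In females Trim25 had 138, 120.0 and 130.2 CPM with MCSF+RANKL, against 159, 181 and 146 CPM with MCSF. In males Trim25 had 115, 129 and 142 CPM with MCSF+RANKL, against 173, 246 and 188 CPM with MCSF. The 12 libraries did not overlap between the treatments. It fell by 0.65 ± 0.14 in males on the log2 scale (edgeR adjusted p 0.000995) and had -0.32 ± 0.14 in females (adjusted p 0.0608; 0.0277 with replicate number as a block and 0.0301 without male MCSF replicate 2).

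Isg15 itself, named after its values were seen, showed how far libraries differed. In females Isg15 had 5.28, 5.99 and 8.66 CPM with MCSF+RANKL, against 10.6, 7.57 and 5.61 CPM with MCSF. In males Isg15 had 4.76, 5.66 and 3.55 CPM with MCSF+RANKL, against 7.61, 25.6 and 3.48 CPM with MCSF. Male MCSF replicate 3 was the lowest of all 12 libraries and male MCSF replicate 2 the highest. Isg15 fell by 1.40 ± 0.53 in males (edgeR adjusted p 0.0396), had -0.25 ± 0.53 in females (adjusted p 0.718), and stood at -0.24 ± 0.36 in males without male MCSF replicate 2 (adjusted p 0.62); DESeq2 did not call it in males either. In the mean of the sexes its log2 fold change was -0.83 ± 0.38 (adjusted p 0.0698; 0.0284 with replicate number as a block). Herc6, the ligase that attaches ISG15 in mice, had -0.39 ± 0.30 in females and -0.65 ± 0.29 in males, and passed in the mean of the sexes at -0.52 ± 0.21 (adjusted p 0.0405), though not without male MCSF replicate 2 (adjusted p 0.129). With replicate number as a block Herc6 also passed in males (adjusted p 0.00497).

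**Figure D2:**
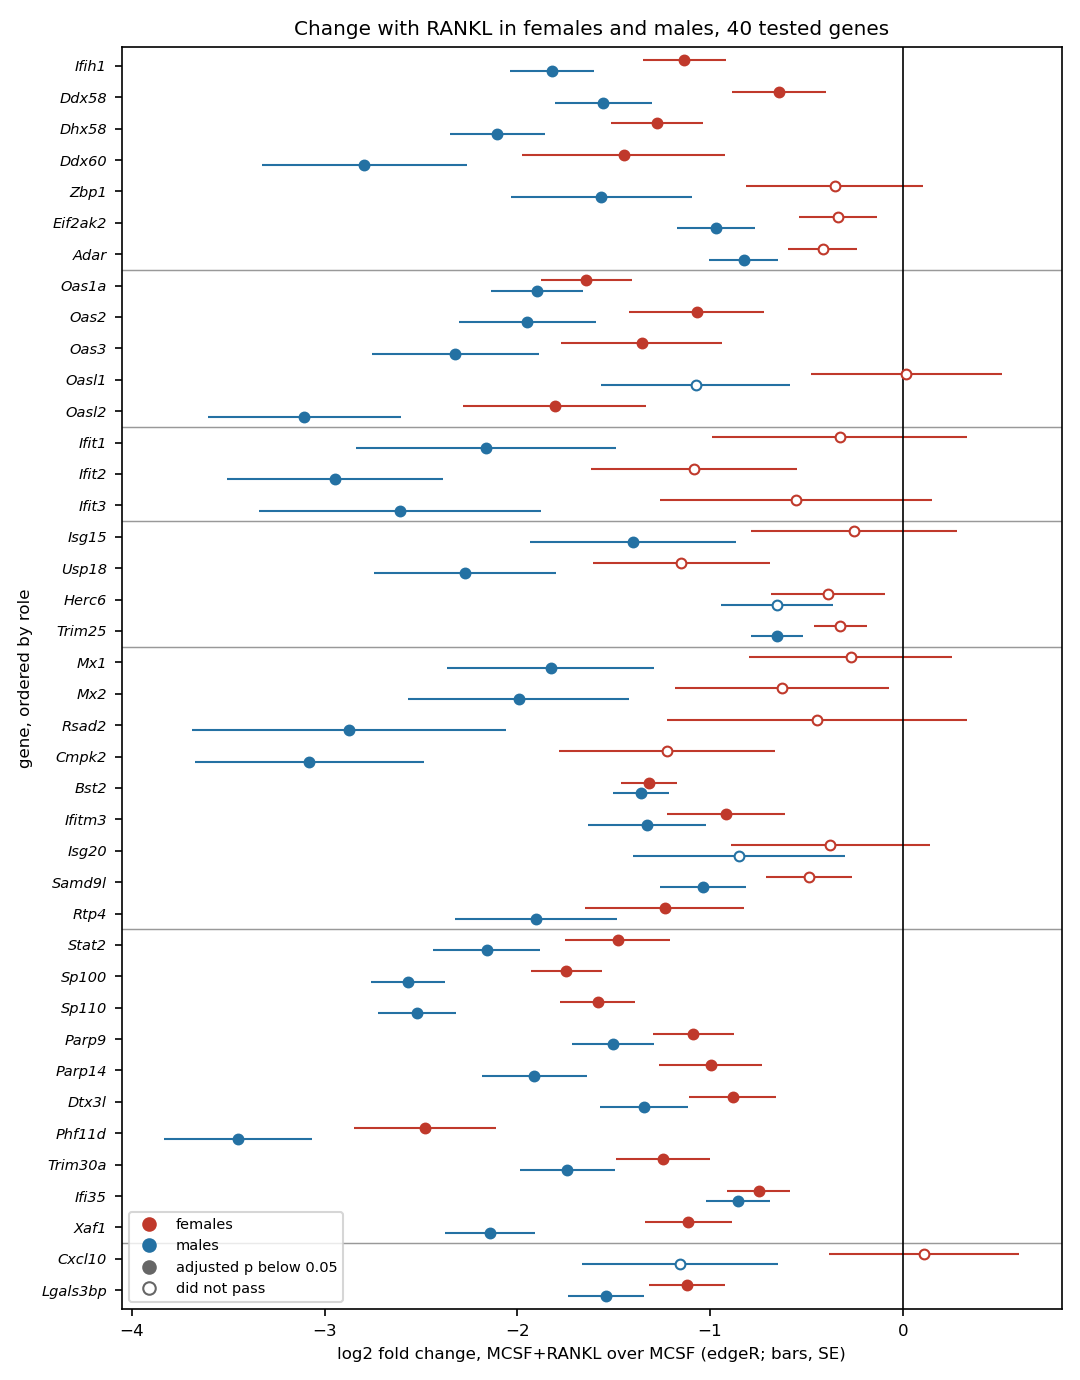
Log2 fold change, MCSF+RANKL over MCSF, of 40 tested members in females (red) and males (blue), with bars for the SE of the edgeR fit. Filled points passed an adjusted p below 0.05, 22 in females and 36 in males, and open points did not; in all 40 rows the male point lies to the left of the female point.

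Among the 9 tested effectors that act on virus entry, replication and release, 8 fell in the mean of the sexes and in males, and 3 fell in females (Bst2, Ifitm3 and Rtp4). Cmpk2, a mitochondrial nucleotide kinase gene beside Rsad2, had the largest change. In females Cmpk2 had 4.76, 4.13 and 6.37 CPM with MCSF+RANKL, against 15.4, 10.6 and 9.77 CPM with MCSF. In males Cmpk2 had 1.92, 3.19 and 2.54 CPM with MCSF+RANKL, against 11.04, 47.1 and 6.54 CPM with MCSF. All 6 libraries with RANKL were below all 6 without. Cmpk2 fell by 3.08 ± 0.59 in males on the log2 scale (edgeR adjusted p 0.00056) and by 1.78 ± 0.31 without male MCSF replicate 2 (adjusted p 0.00034). In females its log2 fold change was -1.22 ± 0.56 (adjusted p 0.0838; 0.0065 with replicate number as a block and 0.0018 without male MCSF replicate 2).

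Ifitm3, a membrane protein that stops viruses from fusing with the cell, had the highest level of all members. In females Ifitm3 had 88.1, 156 and 252 CPM with MCSF+RANKL, against 255, 293 and 388 CPM with MCSF. In males Ifitm3 had 93.7, 95.6 and 139.6 CPM with MCSF+RANKL, against 223, 339.9 and 261 CPM with MCSF. Female MCSF+RANKL replicate 3 reached the MCSF range and the other 5 MCSF+RANKL libraries stayed below it. Ifitm3 fell by 0.92 ± 0.30 in females and 1.33 ± 0.31 in males on the log2 scale (edgeR adjusted p 0.0213 and 0.00223). The female call did not hold without female MCSF replicate 3 (adjusted p 0.082) or female MCSF+RANKL replicate 1 (0.0644). The female libraries numbered 3 also held the most neutrophil marker counts, with 263 CPM over 7 markers in female MCSF+RANKL replicate 3 and 251 CPM in female MCSF replicate 3, against 40.9 to 152 CPM in the other 10 libraries, and their part in these levels was not tested.

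Bst2, or tetherin, which ties budding virus to the cell surface, had the smallest difference between the responses of the sexes and is named after its values were seen. In females Bst2 had 24.2, 28.6 and 33.2 CPM with MCSF+RANKL, against 74.7, 72.9 and 67.1 CPM with MCSF. In males Bst2 had 28.3, 29.1 and 26.8 CPM with MCSF+RANKL, against 74.3, 84.2 and 57.4 CPM with MCSF. The lowest MCSF library lay well above the highest MCSF+RANKL library. Bst2 fell by 1.32 ± 0.15 in females and 1.36 ± 0.15 in males on the log2 scale (edgeR adjusted p 4.52e-06 and 2.83e-06).

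Rsad2, which encodes viperin, the maker of a nucleotide that stops viral RNA synthesis, was the member most raised in a single library, and is likewise named after its values were seen. In females Rsad2 had 5.15, 3.26 and 12.4 CPM with MCSF+RANKL, against 9.29, 8.79 and 10.2 CPM with MCSF. In males Rsad2 had 2.77, 3.45 and 3.49 CPM with MCSF+RANKL, against 6.49, 60.3 and 4.25 CPM with MCSF. Male MCSF replicate 2 held 6.85 times the median of the other 5 MCSF libraries, and the ratio of female MCSF+RANKL replicate 3 to the other 5 MCSF+RANKL libraries was 3.599. Rsad2 fell by 2.87 ± 0.81 in males on the log2 scale (edgeR adjusted p 0.0083), and without male MCSF replicate 2 its log2 fold change was -0.72 ± 0.44 (adjusted p 0.194). In females it was -0.45 ± 0.78 (adjusted p 0.66). With both of these libraries left out, Rsad2 passed in females at -1.15 ± 0.26 and in males at -0.72 ± 0.26 (adjusted p 0.00303 and 0.0378). The libraries were picked for the high levels of the members, so these calls are no separate support of a fall.

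Mx1 and Mx2 encode dynamin-like GTPases that trap viral parts. Mx1 fell by 1.83 ± 0.54 in males on the log2 scale and stood at -0.64 ± 0.33 without male MCSF replicate 2 (edgeR adjusted p 0.0104 and 0.125). Mx2 fell by 1.99 ± 0.57 and stood at -1.22 ± 0.54 without it (adjusted p 0.00919 and 0.0772). In females Mx1 had -0.27 ± 0.53 and Mx2 had -0.63 ± 0.56 (adjusted p 0.694 and 0.373). Without female MCSF+RANKL replicate 3, Mx2 passed in females at -1.53 ± 0.53 (adjusted p 0.0311). Without both libraries, Mx1 passed in females at -0.68 ± 0.24 (adjusted p 0.0383) and not in males (adjusted p 0.0503). Mx2 then passed in females at -1.54 ± 0.37 and in males at -1.22 ± 0.35 (adjusted p 0.00455 and 0.0125). These calls rest on libraries picked from the levels of the members, and are no separate support.

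Samd9l, an inhibitor of translation in infected cells, fell by 1.03 ± 0.22 in males and had -0.49 ± 0.22 in females (adjusted p 0.0832; 0.00928 with replicate number as a block and 0.047 without male MCSF replicate 2). Rtp4, a chaperone of membrane receptors, fell by 1.24 ± 0.41 in females and 1.90 ± 0.42 in males, and its male log2 fold change without male MCSF replicate 2 was -1.13 ± 0.29. Isg20, an RNA exonuclease, held 0.7101 to 2.44 CPM with MCSF+RANKL and 0.766 to 3.42 CPM with MCSF and had -0.61 ± 0.38 in the mean of the sexes (adjusted p 0.17; 0.0353 with replicate number as a block). In males Isg20 had -0.85 ± 0.55, and 0.12 ± 0.50 without male MCSF replicate 2 (adjusted p 0.209 and 0.861).

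The 10 genes of transcription, nuclear bodies and ADP-ribosylation all fell in both sexes, with median log2 fold changes of -1.18 in females and -2.03 in males. Phf11d (chr14:59347407-59365470, minus strand), a gene with a PHD zinc finger, had the largest change of all members. In females Phf11d had 1.92, 1.73 and 3.67 CPM with MCSF+RANKL, against 16.3, 14.4 and 10.1 CPM with MCSF. In males Phf11d had 1.78, 1.82 and 1.46 CPM with MCSF+RANKL, against 13.7, 29.4 and 12.1 CPM with MCSF. The lowest MCSF library was above the highest MCSF+RANKL library by a wide margin. Phf11d fell by 2.48 ± 0.37 in females and 3.45 ± 0.38 in males on the log2 scale (edgeR adjusted p 6.98e-05 and 4.12e-06), and its male log2 fold change without male MCSF replicate 2 was -2.94 ± 0.30. Its close copies Phf11a, Phf11b and Phf11c could share reads with it.

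Parp14, which attaches single ADP-ribose units to proteins, had the highest mean CPM of the group, without regard to length. In females Parp14 had 59.3, 35.2 and 68.9 CPM with MCSF+RANKL, against 132, 105 and 89.2 CPM with MCSF. In males Parp14 had 32.9, 42.9 and 44.4 CPM with MCSF+RANKL, against 114, 214 and 124 CPM with MCSF. It did not overlap between the treatments, and fell by 0.996 ± 0.27 in females and 1.91 ± 0.27 in males on the log2 scale (edgeR adjusted p 0.0062 and 4.10e-05). Its neighbours Parp9 and Dtx3l, which form a ubiquitin ligase together, fell by 1.09 ± 0.21 and 0.88 ± 0.23 in females and by 1.503 ± 0.21 and 1.34 ± 0.23 in males.

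Sp100, a scaffold of nuclear bodies, had the smallest p-value of all members and is named after its values were seen. In females Sp100 had 30.7, 23.97 and 38.9 CPM with MCSF+RANKL, against 112, 96.6 and 105 CPM with MCSF. In males Sp100 had 16.1, 22.7 and 19.3 CPM with MCSF+RANKL, against 101, 141 and 103 CPM with MCSF. No MCSF+RANKL library came near the MCSF range, and among the MCSF+RANKL libraries each female value exceeded each male value. Sp100 fell by 1.75 ± 0.18 in females and 2.57 ± 0.19 in males on the log2 scale (edgeR adjusted p 2.95e-06 and 8.38e-08), and its neighbour and relative Sp110 by 1.58 ± 0.19 and 2.52 ± 0.20.

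Stat2, the subunit of the ISRE-binding complex that is itself a target, held 14.8 to 26.5 CPM with MCSF+RANKL, against 46.7 to 117 CPM with MCSF. It fell by 1.48 ± 0.27 in females and 2.16 ± 0.28 in males on the log2 scale (edgeR adjusted p 0.000434 and 1.66e-05). Trim30a, a mouse ubiquitin ligase that restrains inflammatory signalling, fell by 1.24 ± 0.24 and 1.74 ± 0.25. Xaf1, which opposes the cell death inhibitor XIAP, fell by 1.11 ± 0.23 and 2.14 ± 0.23, and Ifi35, a leucine zipper protein, by 0.75 ± 0.16 and 0.85 ± 0.16, females before males. None of these 4 genes overlapped between the 6 MCSF+RANKL and the 6 MCSF libraries.

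Of the secreted products, 1 of 2 fell. Lgals3bp encodes a glycoprotein that binds galectins. In females Lgals3bp had 48.4, 63.2 and 77.8 CPM with MCSF+RANKL, against 148, 143 and 120.2 CPM with MCSF. In males Lgals3bp had 53.04, 58.6 and 52.98 CPM with MCSF+RANKL, against 152, 209 and 118 CPM with MCSF. The treatments were clearly apart, and Lgals3bp fell by 1.12 ± 0.20 in females and 1.54 ± 0.20 in males on the log2 scale (edgeR adjusted p 0.000304 and 1.71e-05). Cxcl10, a chemokine that attracts activated T cells, held 3.61 to 13.9 CPM with MCSF+RANKL and 3.48 to 18.4 CPM with MCSF, and the treatments overlapped. Its log2 fold change came to 0.11 ± 0.49 in females and -1.16 ± 0.51 in males (adjusted p 0.867 and 0.0694; 0.032 in males with replicate number as a block).

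**Figure D3:**
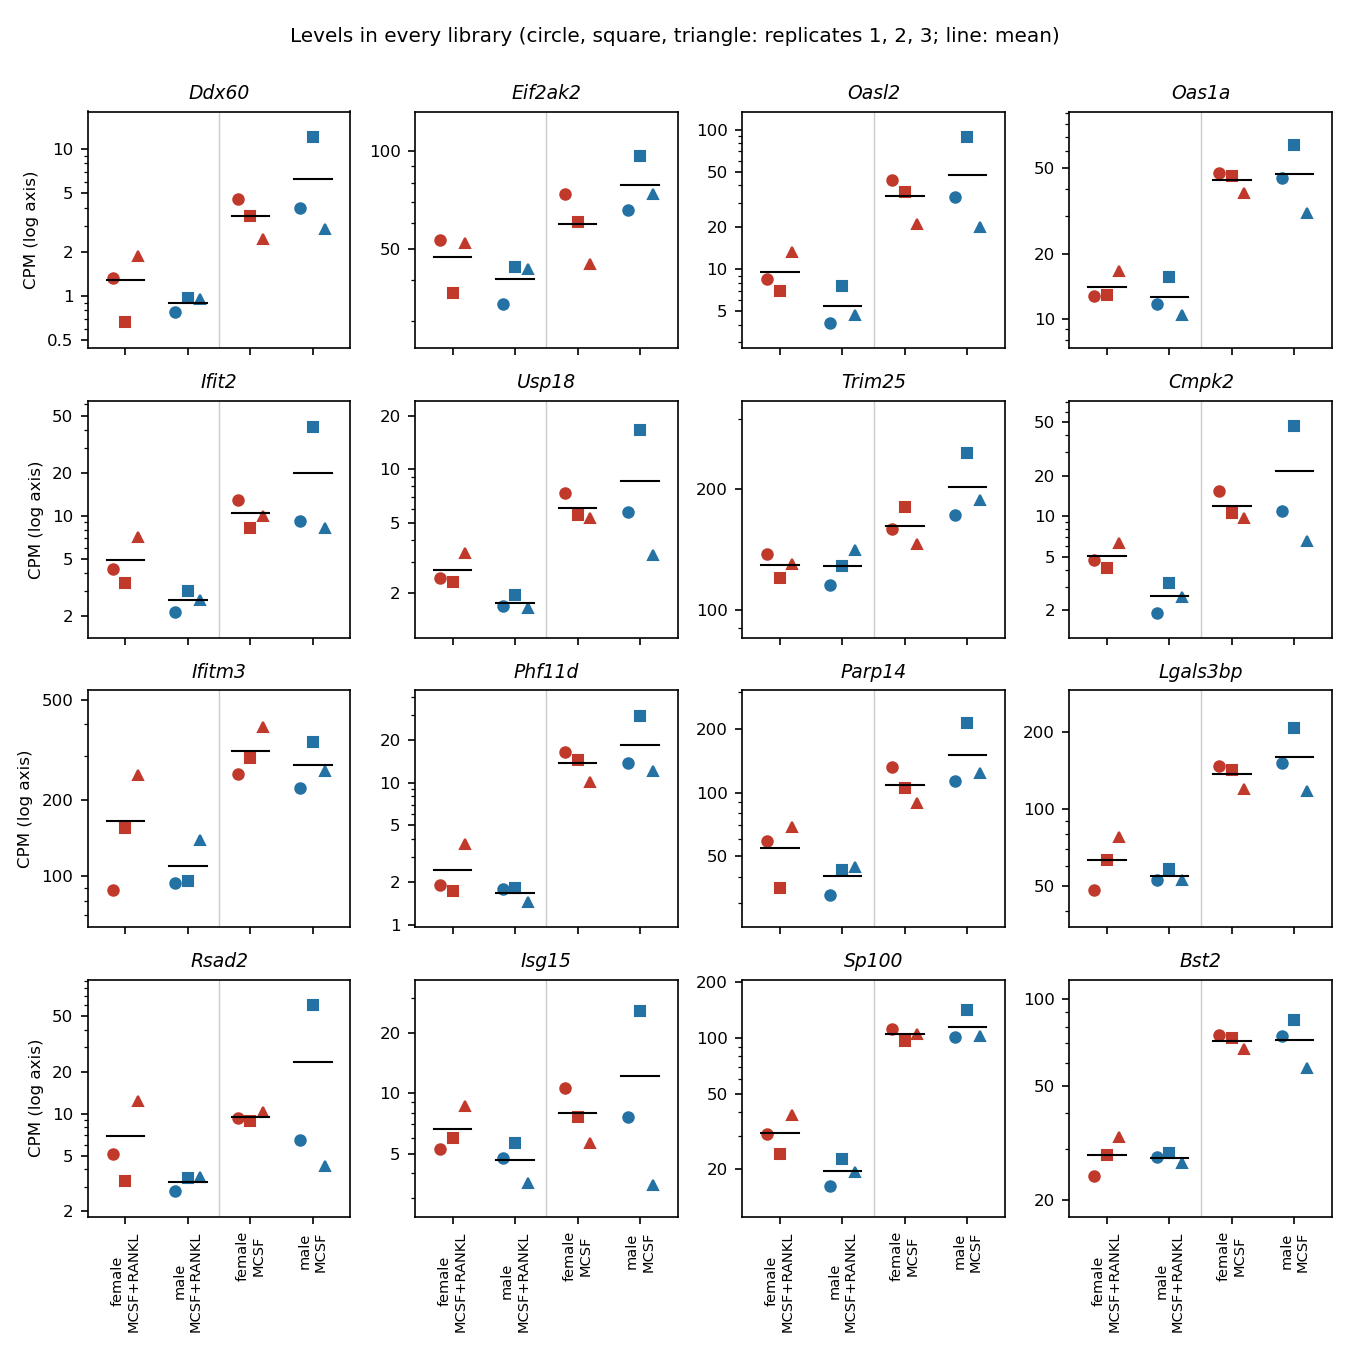
CPM (log axis) of 16 members in every library, 3 replicates per group marked by shape, with a line at the mean; the MCSF+RANKL groups are on the left of each panel and females are red. Phf11d, Sp100, Oas1a and Bst2 do not overlap between the treatments, while for Rsad2 and Isg15 male MCSF replicate 2, at 60.3 and 25.6 CPM, lies far above the other libraries.

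Members differed in how far male MCSF replicate 2 exceeded the other MCSF libraries. Its level over the median of the other 5 ran from 1.12 for Sp110 to 6.85 for Rsad2, with a median of 1.93 over the 40 tested members, and it was at least 2 in 19 of them. The 10 members with the highest ratios were Rsad2, Ifit1, Ifit3, Mx1, Ifit2, Cmpk2, Ddx60, Isg15, Oasl1 and Mx2. The 10 with the lowest ratios were Adar, Eif2ak2, Lgals3bp, Oas1a, Trim25, Sp100, Ifitm3, Ifi35, Bst2 and Sp110. On the log2 CPM scale all 40 members lay above the median of the other 5 MCSF libraries in male MCSF replicate 2, by a median of 0.94, where the median over all tested genes was 0.02. In female MCSF+RANKL replicate 3 all 40 lay above the median of the other 5 MCSF+RANKL libraries, by a median of 0.73, and all tested genes by 0.00.

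**Figure D4:**
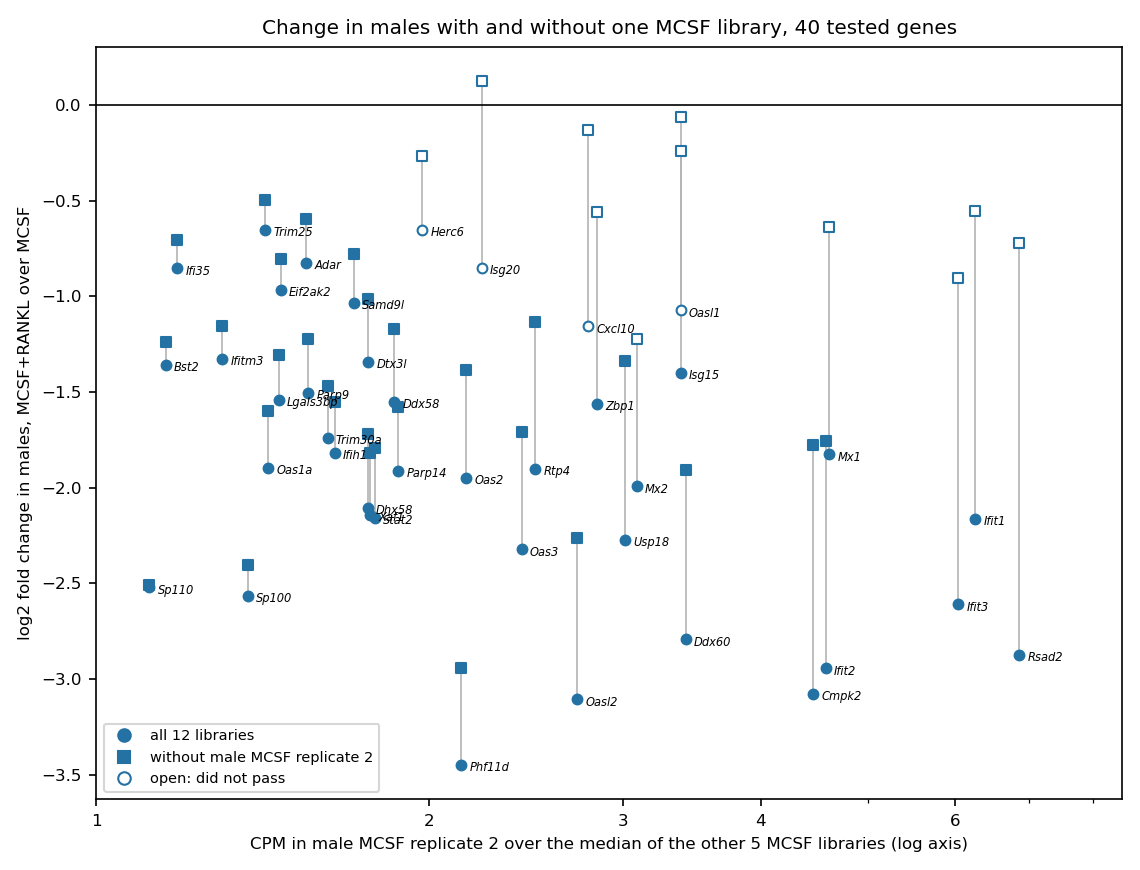
Each of the 40 tested members by its CPM in male MCSF replicate 2 over the median of the other 5 MCSF libraries (horizontal, log axis) and by its log2 fold change in males, MCSF+RANKL over MCSF (vertical), with all libraries (circles) and without male MCSF replicate 2 (squares), joined by a line. Filled points passed, 36 of the circles and 29 of the squares. That library enters both axes of the circles, so their relation is no finding; Rsad2, at the far right, stands at -2.87 with it and -0.72 ± 0.44 (SE) without it.

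The library with the highest level in most members had the same replicate number in both treatments in males but not in females. Male MCSF+RANKL replicate 2 was the highest of the 3 male MCSF+RANKL libraries in 26 of 40 members, beside male MCSF replicate 2 with 39 of 40. Female MCSF+RANKL replicate 3 was the highest of its 3 in 33 of 40. Female MCSF replicate 3 was the highest of its 3 in 8 and the lowest in 21, and there replicate 1 was the highest in 28. Female replicate 2 was the highest in 1 member with MCSF+RANKL and in 4 with MCSF. These counts were not taken over all tested genes. Both outstanding libraries were also left out together, a choice made after seeing the data and from the high levels of the members. In that fit 33 members fell in females, 32 in males and 35 in the mean of the sexes. Of all tested genes 21.96%, 23.65% and 28.82% fell there, in the same order. Herc6 was the 1 member lost from the 36 in the mean of the sexes. Given how the libraries were picked, calls gained in that fit are no separate support. The 11 members that passed in females then and not before were Zbp1, Adar, Ifit1, Ifit2, Ifit3, Usp18, Mx1, Mx2, Rsad2, Cmpk2 and Samd9l. The 4 lost in males were Zbp1, Ifit1, Isg15 and Mx1.

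Whether the response differed between the sexes was tested as the female minus the male response. All 40 differences were above 0, with a median of 0.90 on the log2 scale, so that the log2 fold change was closer to 0 or higher in females. The median difference over all tested genes was 0.007, and their signs were not counted. With edgeR 0 of 40 members passed in either direction, as did 0% of all tested genes (higher) and 0% (lower); 11 of 40 had an unadjusted p below 0.05, as did 1.96% of all tested genes, and DESeq2 called 0. The largest difference was 2.43 ± 1.12 for Rsad2 (SE; adjusted p 1) and the smallest p was that of Sp110, 0.94 ± 0.27 (unadjusted p 0.00425, adjusted p 1). Without male MCSF replicate 2 the median was 0.287, and without both outstanding libraries it was 0.0484, with 16 of 40 below 0. Both libraries were picked for the high levels of the members, so a smaller difference was built into that choice.

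Between the sexes within a treatment, 0 of 40 members passed with edgeR. In MCSF+RANKL the median log2 difference, female over male, was 0.52 over the members and -0.005 over all tested genes. It was above 0 in 39 of 40 members, and signs were not counted over all tested genes. Of all tested genes 0.0151% passed as higher and 0.0378% as lower in females. At an unadjusted p below 0.05 there were 5 members and 3.36% of all tested genes, and DESeq2 called 1, Sp110. Sp110 held 14.9, 11.5 and 21.6 CPM in female MCSF+RANKL, against 7.95, 8.45 and 9.89 CPM in male MCSF+RANKL, a log2 difference of 0.87 ± 0.20 (edgeR adjusted p 0.516). Without female MCSF+RANKL replicate 3 the median was 0.245. In MCSF the median was -0.37, against -0.003 over all tested genes, of which 0.00756% passed as higher and 0.0378% as lower in females. There 1 member, Trim25, had an unadjusted p below 0.05, as did 3.61% of all tested genes, DESeq2 called 0, and the median was 0.121 without male MCSF replicate 2, which turns its sign.

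Upstream of the members, the pathway lists covered interferons, receptors, kinases and transcription factors, sensing adaptors and inhibitors. Of 21 interferon genes, Ifnk and Ifnz were in the count table, at no more than 0.0905 CPM in any library, and the rest were not analysed here. Of 6 receptor genes 5 were tested, and 4 of these fell in both sexes, against 25.1% (females) and 26.6% (males) of all tested genes. The one left untested was Ifnlr1, of the interferon lambda receptor, at no more than 0.462 CPM in any library. Ifnar2, the signalling chain of the type I receptor, had the largest change in the mean of the sexes, with 42.6, 47.5 and 48.1 CPM in female MCSF+RANKL against 75.5, 82.2 and 70.8 CPM in female MCSF. In males Ifnar2 had 43.8, 47.2 and 34.8 CPM with MCSF+RANKL, against 74.02, 83.3 and 70.4 CPM with MCSF. The groups did not overlap, and Ifnar2 fell by 0.73 ± 0.12 and 0.86 ± 0.12 on the log2 scale in females and males (edgeR adjusted p 0.000207 and 4.34e-05). Ifnar1, the other chain, fell by 0.36 ± 0.10 and 0.49 ± 0.10, Ifngr1 of the interferon gamma receptor by 0.43 ± 0.11 and 0.46 ± 0.11, and Il10rb by 0.80 ± 0.14 and 0.74 ± 0.14. Ifngr2, the second gamma receptor chain, rose by 0.72 ± 0.13 and 0.72 ± 0.13.

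Of 10 kinases and transcription factors, 8 fell and 1 rose in the mean of the sexes, against 31.3% and 33.4% of all tested genes. Irf9, the DNA-binding subunit of the ISRE-binding complex, held 16.6 to 27.6 CPM with MCSF+RANKL, against 48.2 to 82.8 CPM with MCSF, and fell by 1.34 ± 0.18 in females and 1.74 ± 0.18 in males on the log2 scale. The libraries of the treatments did not overlap for Irf9, as for its partner Stat2. Irf8, a transcription factor of macrophages, had the largest change of the list, 16.9 to 31.9 CPM with MCSF+RANKL against 144 to 191 CPM with MCSF, a fall of 2.56 ± 0.16 and 3.17 ± 0.17. Irf7, which amplifies interferon production and is a known target of it, had 12.3, 12.8 and 18.3 CPM in female MCSF+RANKL, against 26.8, 25.00 and 19.00 CPM in female MCSF. In males Irf7 had 9.02, 10.5 and 7.03 CPM with MCSF+RANKL, against 23.2, 53.1 and 12.8 CPM with MCSF, with male MCSF replicate 2 again the highest. Irf7 fell by 1.75 ± 0.39 in males (adjusted p 0.00182) and had -0.71 ± 0.38 in females (adjusted p 0.141). Without male MCSF replicate 2 its log2 fold change passed in both sexes, at -0.71 ± 0.24 in females and -1.02 ± 0.27 in males (edgeR adjusted p 0.0239 and 0.00643). The female log2 fold change was the same with and without that library, and only its SE was smaller. As the members stood highest in that library, the female pass is no separate support.

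Also on that list, Irf5 fell by 1.02 ± 0.14 in females and 1.20 ± 0.14 in males on the log2 scale, and Irf2, a factor that competes with Irf1, by 0.61 ± 0.11 and 0.76 ± 0.11. Irf1 had 0.04 ± 0.22 and -0.07 ± 0.22 and did not pass in either sex (edgeR adjusted p 0.886 and 0.81). Irf3, which starts interferon beta transcription, rose by 0.41 ± 0.13 and 0.43 ± 0.13. The receptor kinase gene Jak1 fell by 0.47 ± 0.14 and 0.57 ± 0.14, and Tyk2 by 0.30 ± 0.10 in males, with -0.14 ± 0.10 in females (adjusted p 0.271). The male value of Tyk2 without male MCSF replicate 2 was -0.21 ± 0.10 (adjusted p 0.102).

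Of 14 sensing adaptors and kinases, 10 fell and 2 rose in the mean of the sexes, against 31.3% and 33.4% of all tested genes. Tlr7, a receptor of endosomal RNA, had the largest change, with 6.26 to 16.2 CPM with MCSF+RANKL against 115 to 208 CPM with MCSF, a fall of 3.78 ± 0.30 in females and 4.50 ± 0.31 in males on the log2 scale. The DNA sensor gene Cgas fell by 0.91 ± 0.16 and 1.41 ± 0.16, and Tmem173, which encodes its partner STING, by 1.67 ± 0.15 and 1.97 ± 0.15. The kinase gene Ikbke fell by 1.64 ± 0.26 and 2.47 ± 0.26, while Tbk1, its relative, passed in the mean of the sexes alone (-0.22 ± 0.07; edgeR adjusted p 0.0152). Mavs, the adaptor of RIG-I and MDA5, rose by 0.44 ± 0.10 and 0.49 ± 0.10, and Traf3 by 0.87 ± 0.16 and 0.94 ± 0.16. Ifih1 and Ddx58 and the adaptor they use therefore had log2 fold changes of opposite sign.

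Of 7 tested inhibitors, 5 rose and 1 fell in the mean of the sexes, against 33.4% and 31.3% of all tested genes. Socs3, a feedback inhibitor of receptor kinases, held 7.67 to 12.7 CPM with MCSF+RANKL, against 1.31 to 4.16 CPM with MCSF, and rose by 1.84 ± 0.35 in females and 1.71 ± 0.36 in males on the log2 scale (edgeR adjusted p 0.000577 and 0.001). Socs1, the relative that acts on Jak1 and Tyk2, held 2.03 to 3.86 CPM with MCSF+RANKL and 0.742 to 1.85 CPM with MCSF and rose by 1.46 ± 0.36 and 1.25 ± 0.36. The phosphatase gene Ptpn6 rose by 0.28 ± 0.10 and 0.35 ± 0.10. Samhd1, which breaks down the building blocks of DNA and so starves viruses, fell by 0.41 ± 0.11 in males and had -0.23 ± 0.11 in females (adjusted p 0.107).

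**Figure D5:**
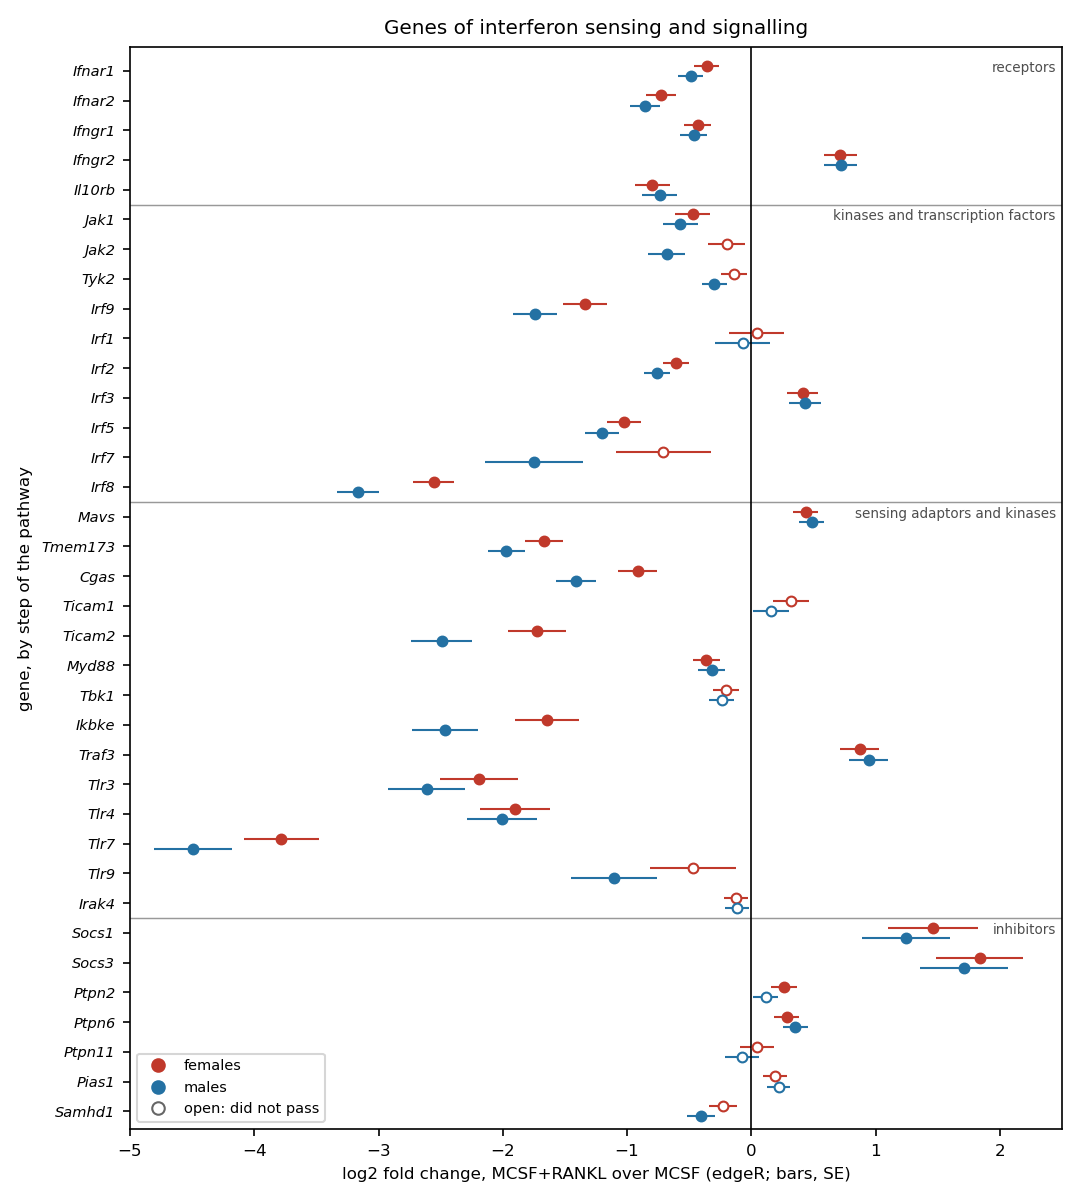
Log2 fold change, MCSF+RANKL over MCSF, of 36 tested genes of interferon sensing and signalling in females (red) and males (blue), with bars for the SE of the edgeR fit; open points did not pass an adjusted p below 0.05. Irf9, Irf8 and Tlr7 lie far to the left in both sexes, Irf1 lies near 0, and Socs1, Socs3 and Traf3 lie to the right.

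Close relatives of the members, which could share reads with them, were also counted. Of 17 tested paralogs, 11 fell and 2 rose in the mean of the sexes, against 31.3% and 33.4% of all tested genes. Their median log2 fold change was -0.85. Oas1c, a synthetase relative beside Oas1a, had the largest change, 0.1901 to 1.26 CPM with MCSF+RANKL against 3.21 to 4.98 CPM with MCSF, a fall of 2.07 ± 0.35 in females and 3.50 ± 0.40 in males. Phf11b fell by 1.79 ± 0.28 and 2.66 ± 0.29, close to Phf11d, and Trim30d by 0.98 ± 0.38 and 2.30 ± 0.39. Ifit3b, the copy of Ifit3, held 0.426, 0.195 and 0.444 CPM in male MCSF+RANKL, against 0.742, 4.55 and 0.418 CPM in male MCSF. Ifitm2 rose by 0.54 ± 0.18 and 0.69 ± 0.18, where its neighbour in the family, Ifitm3, fell. Parp12 passed in the mean of the sexes alone (-0.37 ± 0.12; edgeR adjusted p 0.0179).

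Other genes that interferons can induce were set beside the members. Of 7 tested guanylate-binding protein genes, GTPases of cell-autonomous defence that respond mainly to interferon gamma, 5 rose and 0 fell in the mean of the sexes. Their median log2 fold change was 0.94. Of all tested genes 33.4% rose and 31.3% fell. Gbp7 held 24.4, 12.3 and 19.7 CPM in female MCSF+RANKL, against 2.91, 2.06 and 2.26 CPM in female MCSF. In males Gbp7 had 14.2, 22.4 and 26.2 CPM with MCSF+RANKL, against 1.95, 6.97 and 3.62 CPM with MCSF, and it rose by 2.97 ± 0.41 in females and 2.30 ± 0.37 in males on the log2 scale (edgeR adjusted p 3.28e-05 and 0.000133). Its highest MCSF library was male MCSF replicate 2, as for the members, although its change with RANKL ran the other way. Gbp2 held 2.08 to 6.58 CPM with MCSF+RANKL and 2.41 to 9.25 CPM with MCSF and fell in males by 1.24 ± 0.45. Of 12 genes of class I antigen presentation, 6 fell and 1 rose, beside the same shares of all tested genes, with a median of -0.36. Nlrc5, their transcriptional activator, fell by 0.97 ± 0.29 and 1.91 ± 0.30, Tap2, a peptide transporter subunit, rose by 1.15 ± 0.12 and 1.37 ± 0.12, and H2-D1, a class I heavy chain, had 0.05 ± 0.08 in the mean of the sexes (adjusted p 0.579). Whether these lists differ from the members was not tested.

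Markers of cells that make or respond to interferon were read in every library. The 5 markers of plasmacytoid dendritic cells, the main makers of interferon in blood, summed to 1.27 to 2.49 CPM with MCSF+RANKL and 1.11 to 3.06 CPM with MCSF. The sum was highest in female MCSF replicate 2, and male MCSF replicate 2 held 2.92 CPM. Of these markers, Cox6a2 held 2.35 CPM in male MCSF replicate 2, against a median of 0.464 CPM in the other 5 MCSF libraries. Cox6a2 was 1 of 2 tested markers of this list. Between the sexes in MCSF these 2 had opposite signs (log2, female over male, -1.10 and 0.60), and neither passed. Conventional dendritic cell markers summed to 13.0 to 17.4 CPM with MCSF+RANKL and 13.1 to 20.7 CPM with MCSF. The B cell list summed to 12.3 to 25.7 CPM with MCSF+RANKL and 135 to 338 CPM with MCSF, the highest in male MCSF replicate 2, of which Ighm alone held 336 CPM there; the other B cell markers summed to 0.639 to 1.598 CPM with MCSF+RANKL and 1.48 to 4.43 CPM with MCSF. T and NK cell markers summed to at most 3.99 CPM with MCSF+RANKL and 0.142 CPM with MCSF, where the only tested one, the T cell receptor gene Trac, rose with RANKL. Stromal markers summed to at most 1.11 CPM with MCSF+RANKL and 0.278 CPM with MCSF. Monocyte markers summed to 105 to 231 CPM with MCSF+RANKL and 266 to 430 CPM with MCSF. The part of these cells in the levels of the members was not tested.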

How the data were processed

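RNA of 12 cultures was sequenced; per the labels' protocols, RNA was taken with RNeasy Plus kits and made into stranded poly(A) libraries. Among tools and builds, fastp, STAR 2.7.3a, edgeR and mm10 stand in the submitters' processing notes. How reads were assigned to genes, whether by strand, and on which annotation is not given in the sources used here. The deposited values are whole read counts of 23863 genes, and the authors' own comparisons with log2 fold changes and p-values adjusted as false discovery rates, quoted here only where named. The members and gene lists were chosen with earlier results of these data known, and 1 gene of the pathway lists is not reported here.

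From the deposited counts, 13236 genes passed filterByExpr (minimum count 10), TMM gave the scaling, and all 12 libraries entered 1 quasi-likelihood fit of the 4 groups in R 4.3.3 with edgeR 4.0.16 and limma 3.58.1. CPM are the counts after scaling to a common total, SE are the log2 fold change over the root of F, and genes were called at p below 0.05, adjusted over all tested genes by Benjamini-Hochberg. The depth was 10646697 to 15983769 counts per library. Exon lengths came from GENCODE vM21, on the build of the notes. The code was tested on simulated data.

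Values in every library are given for the called member of each role group with the largest change in the mean of the sexes and the member with the highest mean CPM; no member was called higher or between the sexes, which would also have been named. Other members and pathway genes given library by library, such as Isg15, Bst2, Rsad2, Sp100, Sp110, Ifit1, Ifi44, Irf7 and Ifit3b, were chosen after their values were seen. For further lists the same 2 genes are named, and others by role; marker lists are given as sums. Alternatives were DESeq2 1.42.0 and its size factors, no filter, the authors' filter, the compared groups alone, each library left out in turn, and the replicate number within sex as a block. Libraries of the same sex and number deviated together from their group means (r from 0.302 to 0.706, and -0.618 to -0.00958 for other numbers, over 8920 genes with a log2 CPM above 3), so the numbers of the titles pair the libraries within a sex.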

Additional observations from a re-analysis of the deposited data

How the results depend on the processing

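Over all alternatives the members that rose with RANKL were 0 in each sex and in the mean of the sexes. Leaving out each library in turn, 18 to 28 members fell in females and 29 to 39 in males. In the mean of the sexes 30 to 37 fell. Of all tested genes, 22.3 to 25.1% fell in females, 23.8 to 26.8% in males and 29.7 to 30.9% in the mean. The median log2 fold change of the members was -1.22 to -0.89, -2.08 to -1.22 and -1.54 to -1.17 in the same order. The median of the female minus male response was 0.287 to 1.05, that of female over male in MCSF+RANKL 0.245 to 0.646, and that in MCSF -0.56 to 0.121. The male median was -1.22 without male MCSF replicate 2, with or without female MCSF+RANKL replicate 3. The difference of the responses had a median of 0.287 without male MCSF replicate 2 and 0.0484 without both. In MCSF+RANKL the median of the sexes was 0.245 without female MCSF+RANKL replicate 3, alone or with the other library left out. In MCSF it turned to 0.121 without male MCSF replicate 2, and to 0.121 without both. Those libraries were left out together by a choice made after seeing the data. That choice used the levels of the members, so the direction of these shifts was built in. DESeq2 called 1 member between the sexes in MCSF+RANKL, where edgeR called 0; the cause was not tested. With the replicate number within sex as a block, 28 members fell in females, 38 in males and 38 in the mean of the sexes. Of all tested genes 29.3%, 30.5% and 34.3% fell in that fit. The medians of the members were -1.04, -1.73 and -1.37, and the difference of the responses had a median of 0.819 with 0 members called. Beyond the calls given beside the genes the block changed none. That block gives no comparison of the sexes within a treatment, since the numbers are nested in sex. Fitted on the compared groups alone, 27 members fell in females and 35 in males, against 24.5% and 26.6% of all tested genes. Of the values of the members named for the largest change or highest level of their role group, 641 stayed on their side of the threshold, 25 passed that had not, 6 no longer passed and 0 changed sign. These counts include the fit without both outstanding libraries, chosen after seeing the data. Members with the largest change were picked from these same calls, so that they stayed called is no separate support. Ifi44 and other genes near the filter are limited by depth, and 3 libraries per group limit every comparison.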

Other observations

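Genes other than the members stood out in the same libraries. Among the 50 tested genes furthest above the median of the other 5 MCSF libraries in male MCSF replicate 2, on the log2 CPM scale, were 9 members, beside Y-linked genes, since 3 of the other 5 libraries are female. Genes of the Ifi200 family, DNA-binding proteins of the innate defence, were also there: Ifi206 had 4.77 CPM in that library and a median of 0.464 CPM in the other 5, and Ifi213 had 2.49 CPM and 0.459 CPM. Scd1, an enzyme of fatty acid synthesis, had 272 CPM and 56.7 CPM. Trib3, a pseudokinase of the stress response, had 28.5 CPM and 6.97 CPM, and the gene of the growth factor M-CSF, Csf1, had 14.0 CPM and 2.53 CPM. In female MCSF+RANKL replicate 3 the same count held 4 members, Mx2, Rsad2, Ifit3 and Cxcl10, beside the chemokine gene Cxcl2 with 22.1 CPM and a median of 1.37 CPM in the other 5 MCSF+RANKL libraries. Acod1, an enzyme of activated macrophages, had 27.2 CPM and 5.35 CPM there, and the neutrophil protein genes S100a9 and Ngp had 52.7 CPM and 46.1 CPM, with medians of 10.2 CPM and 9.82 CPM in the other 5. These genes were chosen after their values were seen, and the cause of these levels was not tested.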
